A study of Mus musculus with 6 samples.

Results

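Nuclear receptors are transcription factors whose activity is set by small molecules such as hormones, oxysterols, fatty acids and haem, or, for orphan members, by their own abundance. Here 32 of the 24346 genes in the deposited tables were taken by symbol: the 25 whose symbols follow the Nr pattern of family, letter and number (Nr4a1 and the like), plus Thra, Thrb, Vdr, Esrra, Ppara, Ppard and Hr, which were named. Hr (hairless) is not a receptor but a nuclear corepressor that binds the thyroid hormone and vitamin D receptors, among others. The symbol rule reads no value, but the set was chosen by someone who knew the IL-33 and PBS levels of these genes. Their differences are therefore given as a description: where a member is said below to have risen or fallen, this says on which side of the threshold of the fit over all genes it lay, and is no independent test of a set chosen with these values known.

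RNA sequencing compared 3 libraries of CD11c+ dendritic cells from mouse spleen that had received IL-33, an alarmin cytokine of the IL-1 family, with 3 libraries of such cells given PBS, the vehicle. All cells were enriched by magnetic sorting. The sources used here do not give strain, age, genotype, dose or time, nor whether the cytokine reached the cells in the animal or in culture. They also do not say that libraries of 1 group derive from different animals, so p-values reflect only how far these libraries differ among themselves, possibly for technical reasons.

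Most nuclear receptors work as pairs with a retinoid X receptor or with themselves, sit on DNA with corepressors of the NCoR family, and exchange them for coactivators once a ligand is bound. In macrophages and dendritic cells the liver X receptors and the PPARs tie lipid handling to inflammation, the glucocorticoid receptor restrains cytokine genes, the vitamin D receptor is linked to tolerogenic states, the NR4A receptors are immediate early genes, and the REV-ERB receptors are repressors of the circadian clock.

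The values are FPKM, fragment counts divided by transcript length and scaled for library size, which allows levels of different genes to be set side by side. How library size was scaled is not given in the sources used here. Genes that reached 1 FPKM in 3 or more of the 6 libraries were fitted with limma as log2(FPKM + 1), and a gene is said to have risen or fallen when its Benjamini-Hochberg adjusted p over all 11518 fitted genes was under 0.05. Changes are IL-33 minus PBS on that log2 scale with their standard error (SE, n = 3 per group), which understates the change of low genes. Depth relative to PBS replicate 1, estimated from the spacing of small values, was 0.945 to 1.22 and overlapped between groups. Summed FPKM did not overlap (778391 to 841884 with IL-33 and 614522 to 641412 with PBS). With libraries rescaled to equal totals, the median over all genes was -0.29 in place of 0.01.

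The sorted cells carried the defining dendritic cell transcripts, with Itgax (CD11c) at 241 ± 11.8 FPKM in the PBS group and 283 ± 15.1 FPKM with IL-33 (SD, n = 3), and H2-Ab1 at 4643 ± 224 and 7511 ± 466 FPKM, both higher with IL-33. The dendritic cell factor gene Zbtb46 fell from 36.9 ± 0.745 to 23.5 ± 1.94 FPKM (-0.63, SE 0.07, limma adjusted p = 0.000867) and the growth factor receptor gene Flt3 from 114 ± 5.85 to 74.8 ± 10.8 FPKM (-0.61, SE 0.11, limma adjusted p = 0.00319), so these identity markers moved with the groups as well. Of the 8 shared dendritic cell markers 4 rose and 3 fell. Of 10 type 1 conventional dendritic cell markers 4 rose and 5 fell, and of 10 type 2 markers 4 rose and 2 fell. Of 8 plasmacytoid dendritic cell markers 5 fell and none rose. Other cells were present too. The summed level of 13 T cell markers was 283 to 529 FPKM in the PBS group and 132 to 142 FPKM with IL-33, and all 13 fell. That of 12 NK cell markers was 656 to 924 and 252 to 399 FPKM, with 11 lower. The 10 eosinophil markers summed to 220 to 312 and 882 to 1263 FPKM, with 8 higher, the 11 neutrophil markers to 514 to 834 and 1240 to 2488 FPKM, and the 8 plasma cell markers to 143 to 213 and 445 to 472 FPKM. The 12 macrophage markers had a larger sum, 2611 to 4518 FPKM with PBS and 3841 to 5271 FPKM with IL-33, with 3 higher and none lower. The 11 monocyte markers summed to 981 to 1320 and 1043 to 1151 FPKM, with 2 higher and 4 lower. The 10 B cell markers summed to 337 to 819 and 370 to 500 FPKM, with 3 lower. Of 6 fitted mast cell and basophil markers 4 were higher and 1 lower. The shares over all fitted genes were 28% higher and 25.5% lower. Some fitted markers were below 1 FPKM in all PBS libraries and so passed the filter only through their IL-33 libraries. These were 3 eosinophil, 1 neutrophil, 1 plasma cell and 4 mast cell and basophil markers, which tilts those counts towards higher. None of these lists had a marker at 0 throughout. In bulk RNA, fewer cells of a type and less transcript per cell cannot be told apart, and the part of these markers and cells in the differences below was not tested.

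Of the 32 members, 16 passed the expression filter. Among these 6 rose (Hr, Vdr, Nr4a3, Nr1h3, Nr1d1 and Nr2f6), 4 fell (Nr3c1, Nr1d2, Nr2c2 and Ppard) and 6 did not pass (Esrra, Nr1h2, Nr2c1, Nr4a1, Nr4a2 and Thra). Over all fitted genes 28% rose and 25.5% fell, or 53.6% in either direction. The calls of Hr, Vdr, Nr4a3, Nr1h3, Nr3c1 and Nr1d2 held under each alternative in which they were fitted, and those of Nr1d1, Nr2f6, Nr2c2 and Ppard did not. With equal totals 4 members were higher and 6 lower, against 11.1% and 50.7% of all genes. All 3 IL-33 libraries lay above the PBS libraries for 6 members and below them for 5 (the 4 that fell, and Thra), where the shares over all fitted genes were 32.7% and 30.9%. Of the members that rose 3 did so by at least 1 on the log2 scale (Hr, Vdr and Nr4a3) and no member fell by as much, where 3.11% and 1.91% of all fitted genes did. The median change of the fitted members was 0.14, beside 0.01 for all genes. These counts and the median describe a set chosen with the values known, so they cannot show whether the members exceed all genes. Hr and Vdr, moreover, passed the filter only through their IL-33 libraries.

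**Figure D1:**
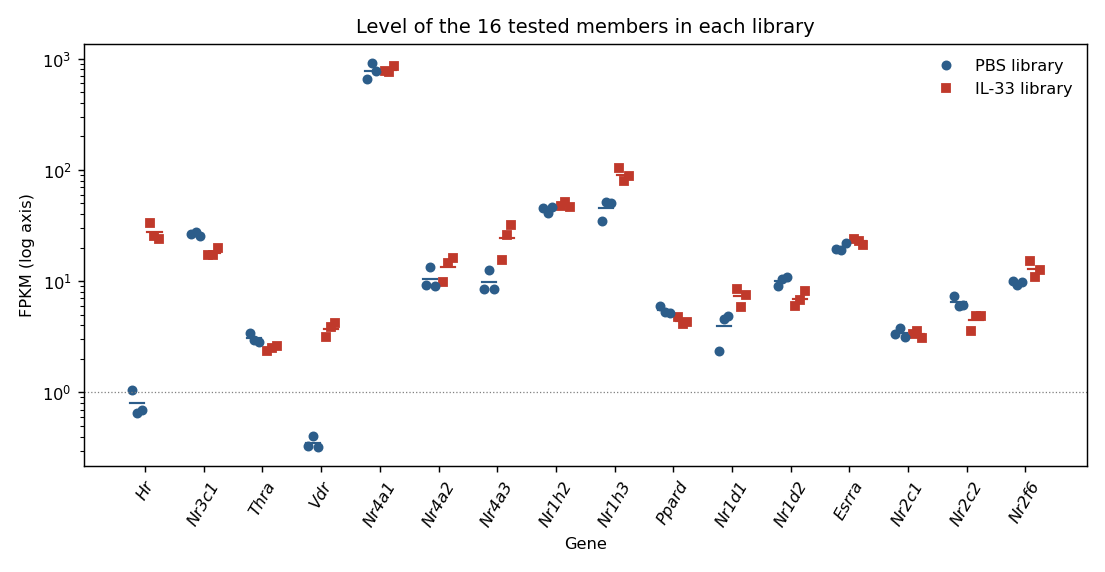
Level in FPKM (log axis) of the 16 members that passed the filter, in each PBS library (circles) and IL-33 library (squares), with group means as bars and a dotted line at 1 FPKM. Nr4a1 sits between 653 and 909 FPKM in all libraries, while Hr moves from near 1 to above 20 FPKM.

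In the PBS cells Nr4a1, the orphan receptor Nur77, was far above the rest at 778 ± 128 FPKM and ranked between 120 and 167 among all genes over the 6 libraries. It made up 79.2% of the members' summed FPKM in the PBS group and 73.2% with IL-33. Next came both liver X receptors, Nr1h3 (45.5 ± 9.64 FPKM) and Nr1h2 (44.5 ± 2.84 FPKM), which did not differ beyond their spread, then the glucocorticoid receptor gene Nr3c1 (26.4 ± 1.15 FPKM) and Esrra (20.3 ± 1.71 FPKM). Nr4a2, Nr1d2, Nr4a3 and Nr2f6 lay between 9.71 and 10.5 FPKM on average and overlapped. The others were at 6.45 FPKM or less. With IL-33 the order changed below Nr4a1: Nr1h3 (90.2 ± 12.4 FPKM) stood above Nr1h2 (48.1 ± 2.47 FPKM) in each library, and Hr (27.6 ± 5.07 FPKM), which had been the second lowest of the fitted members, came next, with Nr4a3 (24.3 ± 8.20 FPKM) and Esrra (22.7 ± 1.39 FPKM) within its spread.

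Hr showed the largest change of the members. It was at 1.05, 0.652 and 0.701 FPKM in PBS replicates 1, 2 and 3 and at 33.4, 25.5 and 24.0 FPKM in the IL-33 replicates. Every IL-33 library was thus far above every PBS library. The ratio of means was 34.6-fold and the log2 change 3.99 (SE 0.14), the 14th largest rise of all fitted genes. Leaving out any 1 library gave 3.85 to 4.08, and the value added before the logarithm moved it more, to 4.96 with 0.1 and 2.48 with 5. Only 1 PBS library reached 1 FPKM, so Hr passed the filter through its IL-33 libraries. Hr is a protein-coding gene on the plus strand of chromosome 14 (70552212 to 70573548 in GRCm38, also called mm10), with 6919 exonic bases, and no other annotated exon overlaps its own. It belongs to the longest of 3 equal classes of genes by exonic length, a class whose median change was -0.21 with 12.6% higher and 44.8% lower.

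Among the hormone receptors the vitamin D receptor rose and the glucocorticoid receptor fell. Vdr, which binds calcitriol, was at 0.329, 0.407 and 0.324 FPKM in the PBS group and at 3.14, 3.89 and 4.21 FPKM with IL-33. The groups were well apart, although even the IL-33 level was low, and Vdr too passed the filter only through its IL-33 libraries. The ratio of means was 10.6-fold and the log2 change 1.80 (SE 0.12), with 1.73 to 1.90 when 1 library was left out, 3.08 with a pseudocount of 0.1 and 0.71 with one of 5. Hr and Vdr were the only members, of the 32, below 1 FPKM on average with PBS and above it with IL-33. Within the IL-33 group they were not ordered alike, since Hr was highest and Vdr lowest in replicate 1.

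Nr3c1, the cortisol and corticosterone receptor, stood at 26.3, 27.6 and 25.3 FPKM in the PBS group and at 17.0, 17.0 and 20.0 FPKM with IL-33. The highest IL-33 library was below the lowest PBS library, and the change was -0.53 (SE 0.08), with an IL-33 mean 0.681 times the PBS mean. The thyroid hormone receptor gene Thra was at 3.44, 2.98 and 2.83 FPKM in the PBS group and 2.37, 2.52 and 2.62 FPKM with IL-33. Its groups did not overlap, but it did not pass (-0.22, SE 0.10) except with equal totals (-0.47). Thra and the REV-ERB gene Nr1d1 lie tail to tail on opposite strands of chromosome 11 and share 263 exonic bases. The library kit was stranded, but the sources used here do not say whether the counting used strand, so reads of the shared part may have gone to either gene. Thrb ranged from 0.624 to 1.37 FPKM and was not fitted, and the mineralocorticoid receptor gene Nr3c2 reached 0.303 FPKM at most.

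The stretch upstream of the Vdr start site is printed because Vdr was the receptor gene with the largest change. Sequences here are RefSeq promoter entries on GRCm38.p6, found for 28 of the 32 members and not for Hr, Thra, Nr3c1 and Nr5a1. The 250 bases before each start were searched on both strands for 12 motifs, and the bases that no annotated exon (GENCODE M21) covers are printed, 5′ to 3′, with matches in capitals. The starts of Vdr and Nr4a1 in that table lie inside the annotated genes, so that the bases printed for them are intronic. The starts of Nr4a3 and Nr1d2 also lie inside the annotated genes, but the bases printed for them lie before the annotated gene. The Vdr window holds 1 match, to the STAT6 spacing TTCNNNNGAA at bases -220 to -211 from the start. Of all 32851 promoter windows, 5.85% hold that motif.
Vdr, chr15:97908311-97908546, minus strand: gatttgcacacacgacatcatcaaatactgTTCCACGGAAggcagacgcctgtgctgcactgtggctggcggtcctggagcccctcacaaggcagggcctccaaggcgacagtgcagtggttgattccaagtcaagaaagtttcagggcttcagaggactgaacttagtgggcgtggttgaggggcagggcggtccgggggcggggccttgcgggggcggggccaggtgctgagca

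**Figure D2:**
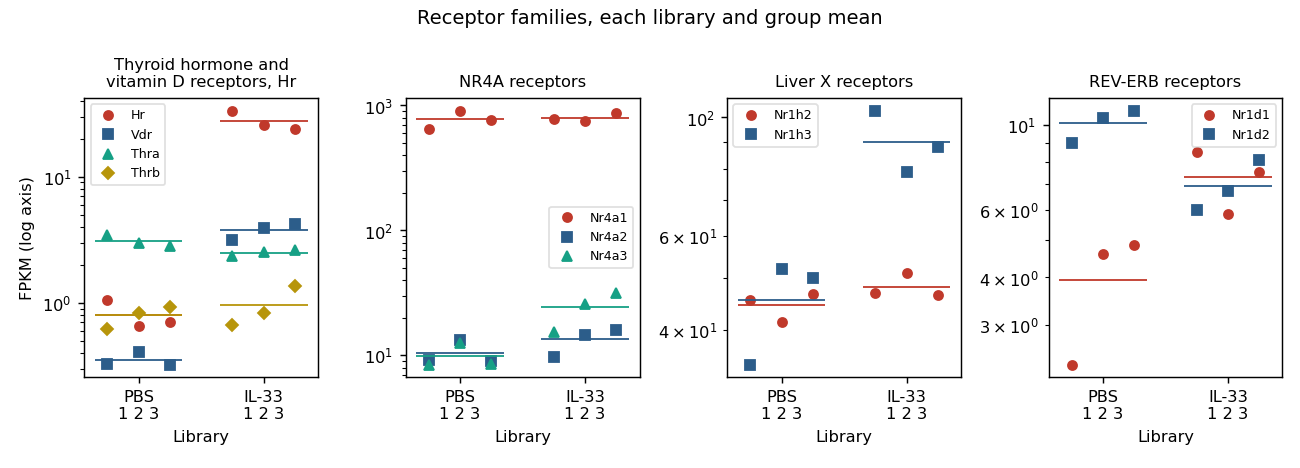
FPKM (log axis) of receptor families in PBS and IL-33 replicates 1, 2 and 3, with group means as lines. Hr and Vdr lie apart between the groups, Nr4a3 separates from Nr4a2, Nr1h3 leaves the level of Nr1h2, and Nr1d1 and Nr1d2 meet with IL-33.

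The NR4A receptors, immediate early transcription factors that need no ligand, did not change alike in these libraries. Nr4a3 (NOR-1) was at 8.45, 12.6 and 8.49 FPKM in the PBS group and at 15.5, 25.7 and 31.7 FPKM with IL-33. The groups did not overlap, but the IL-33 replicates differed among themselves, with replicate 1 nearest to the PBS libraries. The change was 1.19 (SE 0.26), with 0.97 to 1.47 when 1 library was left out. Nr4a1 was at 653, 909 and 770 FPKM in the PBS group and at 772, 754 and 865 FPKM with IL-33. These ranges overlap widely, and the change of 0.05 (SE 0.13) was -0.29 with equal totals and, past the threshold, -0.38 with quantile normalization. Nr4a2 (Nurr1) was at 9.24, 13.4 and 8.95 FPKM in the PBS group and 9.78, 14.6 and 16 FPKM with IL-33, a change of 0.32 (SE 0.20) that did not pass. The ratio of Nr4a1 to Nr4a3 in the same library was 77.3, 72.1 and 90.7 with PBS and 49.8, 29.4 and 27.3 with IL-33, so Nr4a3 was higher relative to Nr4a1 in each IL-33 library. Whether the changes of these genes differ was not tested beyond these ratios.

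The upstream windows of the family are shown because its members carry the same element and Nr4a3 alone passed the threshold. Each holds 4 copies of TGACG, the core of the cAMP response element, counted on both strands (CGTCA is the other strand). Of all promoter windows, 17.8% hold at least 1 copy and 0.137%, or 45 windows, hold at least 4. The windows are rich in G and C, at 74.4% for Nr4a1, 80% for Nr4a2 and 63.6% for Nr4a3, beside a median of 52.4%, and TGACG holds a CpG. Of the 4 copies of Nr4a3, 3 lie in the part printed and 1 in an annotated exon at -147 to -143.
Nr4a1, chr15:101266596-101266845, plus strand: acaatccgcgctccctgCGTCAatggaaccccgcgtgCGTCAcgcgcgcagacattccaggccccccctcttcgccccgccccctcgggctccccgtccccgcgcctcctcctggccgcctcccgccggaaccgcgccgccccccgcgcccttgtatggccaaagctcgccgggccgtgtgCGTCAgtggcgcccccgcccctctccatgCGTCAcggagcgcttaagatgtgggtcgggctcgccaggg
Nr4a2, chr2:57124004-57124253, minus strand: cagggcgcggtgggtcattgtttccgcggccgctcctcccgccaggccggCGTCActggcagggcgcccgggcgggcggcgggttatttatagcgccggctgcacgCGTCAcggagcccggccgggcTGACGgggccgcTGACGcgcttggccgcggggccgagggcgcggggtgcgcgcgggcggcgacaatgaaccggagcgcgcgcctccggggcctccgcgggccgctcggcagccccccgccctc
Nr4a3, chr4:48045055-48045152, plus strand: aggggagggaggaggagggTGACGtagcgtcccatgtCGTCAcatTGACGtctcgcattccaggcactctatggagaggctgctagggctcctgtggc

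Among the sensors of lipid metabolites 1 of the liver X receptors rose. Nr1h3 (LXR alpha), an oxysterol receptor of macrophages, was at 34.4, 51.9 and 50.1 FPKM in the PBS group and at 103, 79.0 and 88.1 FPKM with IL-33. Every IL-33 library was above every PBS library, and the change was 0.99 (SE 0.17). Nr1h2 (LXR beta), the widely expressed form, was at 45.4, 41.3 and 46.7 FPKM in the PBS group and 46.9, 51.0 and 46.5 FPKM with IL-33. It did not pass, and its change of 0.11 (SE 0.07) was -0.22 with equal totals. The ratio of Nr1h3 to Nr1h2 was 0.758, 1.26 and 1.07 in the PBS libraries and 2.2, 1.55 and 1.89 in the IL-33 libraries. Ppard, the fatty acid sensor PPAR delta, was at 6.02, 5.24 and 5.19 FPKM in the PBS group and 4.75, 4.08 and 4.31 FPKM with IL-33. Its fall of 0.27 (SE 0.09) was the smallest called. The call was lost without any 1 library other than IL-33 replicate 1 (-0.30 to -0.21) and after removal of the trend with length (-0.13). It was also lost with quantile normalization (-0.17), with the replicate block and without an expression filter. The bile acid, xenobiotic and PPAR alpha receptor genes were close to absent. Nr1h5 and Nr1i2 were listed at 0 in all libraries, and Nr1h4, Nr1i3 and Ppara were listed at 0 in all IL-33 libraries and reached at most 0.0385, 0.0569 and 0.00973 FPKM with PBS.

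The REV-ERB receptors, haem-binding repressors of Arntl and other clock genes, moved in opposite directions. Nr1d1 was at 2.37, 4.60 and 4.86 FPKM in the PBS group and at 8.5, 5.86 and 7.55 FPKM with IL-33. The rise of 0.78 (SE 0.23) was not past the threshold without IL-33 replicate 1 (0.67) or IL-33 replicate 3 (0.75). Nor was it with equal totals (0.49), with the length trend removed (0.62) or without an expression filter. Without PBS replicate 1, the lowest library, it was 0.52. Nr1d2 was at 8.99, 10.4 and 10.9 FPKM in the PBS group and at 6.01, 6.71 and 8.08 FPKM with IL-33, a fall of 0.49 (SE 0.12). The ratio of Nr1d1 to Nr1d2 was 0.264, 0.443 and 0.446 with PBS and 1.41, 0.873 and 0.935 with IL-33, so the 2 groups did not overlap in the balance of the pair. Their upstream windows are printed because the pair changed in opposite directions. That of Nr1d2 holds the receptor hexamer AGGTCA at -77 to -72, as do 14% of all windows in at least 1 copy, and that of Nr1d1 holds none of the 12 motifs.
Nr1d1, chr11:98775378-98775627, minus strand: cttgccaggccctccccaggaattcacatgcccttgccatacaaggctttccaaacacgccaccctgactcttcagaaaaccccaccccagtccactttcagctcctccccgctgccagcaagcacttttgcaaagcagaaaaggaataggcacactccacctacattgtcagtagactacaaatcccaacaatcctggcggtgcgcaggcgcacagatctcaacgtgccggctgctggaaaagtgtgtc
Nr1d2, chr14:18239128-18239356, minus strand: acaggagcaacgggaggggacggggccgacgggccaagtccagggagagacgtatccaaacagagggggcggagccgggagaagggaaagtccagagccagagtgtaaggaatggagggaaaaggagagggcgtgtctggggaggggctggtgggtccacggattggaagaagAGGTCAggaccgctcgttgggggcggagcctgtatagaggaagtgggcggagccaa

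The other orphan receptors moved little. Nr2f6 (EAR2), a repressor known from T helper cells, was at 10.1, 9.21 and 9.81 FPKM in the PBS group and at 15.3, 11.0 and 12.5 FPKM with IL-33. Its rise of 0.37 (SE 0.12) rested on small margins. With 1 library left out, it was past the threshold only without IL-33 replicate 2 (0.25 without IL-33 replicate 1). Nor was it past it with equal totals (0.06), with the length trend removed (0.20) or without an expression filter. Nr2c2 (TR4) was at 7.28, 5.96 and 6.12 FPKM in the PBS group and 3.56, 4.89 and 4.85 FPKM with IL-33. This fall of 0.46 (SE 0.13) did not pass without PBS replicate 1 (-0.38) and shrank to -0.10 with the length trend removed. Nr2c2 has the longest exon union of the fitted members (14935 bases), of which 4590 bases overlap exons of Mrps25 on the opposite strand, and 1622 bases of Nr2f6 overlap Ocel1 on the opposite strand. Nr2c1 (TR2) was at 3.43 ± 0.333 and 3.32 ± 0.248 FPKM and Esrra, a driver of mitochondrial genes, at 20.3 ± 1.71 and 22.7 ± 1.39 FPKM in the PBS group and IL-33, and neither passed. With equal totals Esrra (0.16) was at -0.17 and still not past the threshold, whereas Nr2c1 (-0.04) was at -0.30 and past it. Nr0b1, Nr0b2, Nr2e1, Nr2f1 and Nr5a2 were listed at 0 in all libraries. Nr2e3, Nr2f2, Nr5a1 and Nr6a1 stayed at or below 0.431 FPKM.

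**Figure D3:**
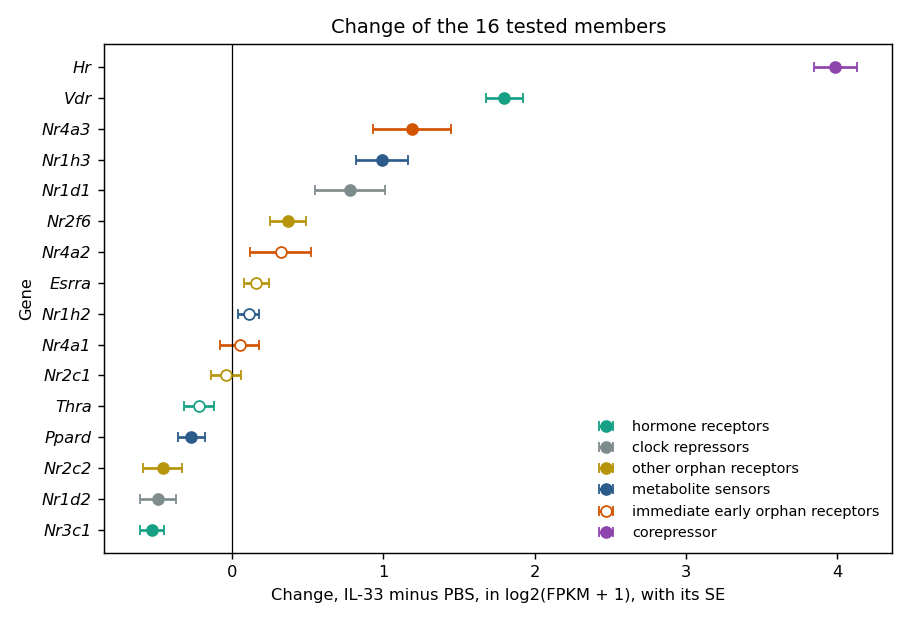
Change of the 16 fitted members, IL-33 minus PBS, in log2(FPKM + 1) with SE bars, coloured by role; filled points passed the adjusted threshold. Hr stands at 3.99 and Vdr at 1.80, and the remaining members lie between -0.53 and 1.19.

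Of 18 nuclear receptors that the symbol rule leaves out, 5 were fitted, 2 rose and 1 fell, where 28% of all fitted genes rose and 25.5% fell. The partner receptor gene Rxrb rose from 42.6 ± 2.08 to 52.2 ± 2.07 FPKM (0.29, SE 0.07, limma adjusted p = 0.00963). It was at -0.05 with equal totals and, not past the threshold, at 0.11 with quantile normalization. Rarg, a retinoic acid receptor, rose from 14.5 ± 1.46 to 21.1 ± 3.55 FPKM (0.50), a call lost without IL-33 replicate 1 (0.42) or 2 (0.44) and with equal totals (0.18). Rara fell from 22.0 ± 1.39 to 18.4 ± 1.52 FPKM (-0.25). Its call was lost without IL-33 replicate 1 or 3 or PBS replicate 1 or 2 (-0.25 to -0.19), and without an expression filter. Rxra (22.1 ± 3.00 and 28.2 ± 4.32 FPKM) and Pparg (32.0 ± 9.88 and 36.0 ± 6.17 FPKM) did not pass. The other 13 were below the filter, among them Rora, whose product the corepressor Hr also binds, at 1.34 ± 0.768 with PBS and 0.672 ± 0.122 FPKM with IL-33, and Rorb, which was listed at 0.

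The coregulators that receptors recruit were mostly lower with IL-33. Of 11 genes of corepressor complexes 8 fell and 1 rose (Hdac3), with a median change of -0.54. Ncor1, the corepressor of unliganded receptors, fell from 35.8 ± 3.25 to 21.8 ± 3.45 FPKM (-0.70, SE 0.12, limma adjusted p = 0.00322), and Hdac7 (-0.79), Sin3a (-0.57) and Nrip1 (-0.54) fell as well. Hr thus rose while most of the other corepressor genes did not. The call of Hdac3 (0.20) was lost without any 1 library other than PBS replicate 2, and its change was -0.13 with equal totals. The call was also lost with quantile normalization, with the replicate block and with the length trend removed. Of 11 fitted coactivators 9 fell and 1 rose (Ppargc1b), with a median of -0.58: Med1, which links receptors to the Mediator complex, fell from 17.6 ± 2.24 to 10 ± 0.0838 FPKM (-0.75, SE 0.10, limma adjusted p = 0.00117), and Ep300 (-0.83), Ncoa2 (-0.63) and Ncoa1 (-0.58) fell too. The shares over all fitted genes were 28% higher and 25.5% lower. In each of these lists 8 of 11 genes belong to the longest class by exonic length, where 12.6% were higher and 44.8% lower. With the length trend removed, 5 corepressor genes were lower and none higher, and 9 coactivators were lower and 2 higher, but several changes shrank: Ncoa2 to -0.25, Nrip1 to -0.26, Ncor1 to -0.39 and Ep300 to -0.48.

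The chaperones that hold steroid receptors ready for ligand rose in 3 of 8 cases (median 0.47) with none falling, where 28% of all fitted genes rose and 25.5% fell. Hsp90ab1 rose from 770.0 ± 46.7 to 1082 ± 69.3 FPKM (0.49) and Hspa8 from 1796 ± 296 to 2631 ± 295 FPKM (0.56). Both calls were lost with equal totals and with quantile normalization. With equal totals none of the list was higher and 2 were lower. Fkbp5, a chaperone and a target of the glucocorticoid receptor, rose by 0.97 (SE 0.31). Its IL-33 libraries were at 18, 20.7 and 45.5 FPKM and its PBS libraries at 11.8, 12.5 and 13.8 FPKM. IL-33 replicate 3 thus set much of the change, which was 0.57 without it (still past the threshold). Fkbp5 was not called without PBS replicate 1 (0.92) or 2 (0.96), with equal totals (0.65) or without an expression filter.

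Genes known to answer to the members did not follow 1 direction. The shares over all fitted genes were 28% higher and 25.5% lower, or 11.1% and 50.7% with equal totals. Of 15 glucocorticoid receptor targets 7 rose and 1 fell (Zbtb16), with a median of 0.25 (5 higher, 4 lower and -0.08 with equal totals, and 6 and 4 with quantile normalization). Mt2, a metallothionein, rose from 3.48 ± 0.303 to 37.0 ± 7.50 FPKM (3.07, SE 0.15, limma adjusted p = 4.47e-05), and Mt1 (2.04), Cdkn1a (1.37) and Klf9 (0.77) rose as well. Tsc22d3 (GILZ), a direct target, was at 317 ± 13.7 with PBS and 286 ± 4.99 FPKM with IL-33 and did not pass. Of 11 fitted LXR targets other than Nr1h3, 3 rose and 3 fell (median -0.01), near the shares over all fitted genes. With equal totals 2 were higher and 6 lower. Pltp, the phospholipid transfer protein, rose from 47.5 ± 4.25 to 331 ± 71.8 FPKM (2.76, SE 0.16, limma adjusted p = 7.04e-05) and Lpcat3 by 0.69 (SE 0.07), whereas Apoe fell from 1176 ± 262 to 584 ± 89.4 FPKM (-0.99, SE 0.18) and Mylip by 0.43 (SE 0.09). Of the cholesterol exporters, Abcg1 rose from 28.6 ± 2.39 to 37.0 ± 1.73 FPKM (0.36, SE 0.08, and 0.03 with equal totals) and Abca1 (-0.18, SE 0.10) did not pass.

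Of 3 fitted genes that make or clear oxysterols 2 rose and none fell, where 28% of all fitted genes rose and 25.5% fell. Cyp7b1, which inactivates 25-hydroxycholesterol and related ligands, rose from 1.44 ± 0.167 to 4.75 ± 0.986 FPKM (1.22, SE 0.14, limma adjusted p = 0.000805) and Hsd3b7, the next enzyme, by 0.63 (SE 0.10), while Cyp27a1 was at 94.0 ± 9.53 and 98.0 ± 3.91 FPKM. Ch25h stayed at or below 0.245 FPKM. Of 12 fitted PPAR alpha and delta targets 9 rose and none fell (median 0.53), while Ppara was near 0 and Ppard was lower. The lipid droplet coat gene Plin2 rose from 58.0 ± 7.75 to 150.0 ± 18.8 FPKM (1.36, SE 0.12, limma adjusted p = 0.000388), and the fatty acid oxidation genes Acaa2 (0.96), Ech1 (0.77) and Hadha (0.59) rose as well. With equal totals 6 were higher and none lower, against 11.1% and 50.7% of all fitted genes.

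Of 11 fitted clock genes other than the REV-ERB pair 4 were higher and 4 lower (median 0.04), shares near those over all fitted genes (28% and 25.5%). Nfil3, a repressor that shares its DNA site with the PAR factors, rose from 22.1 ± 4.25 to 94.9 ± 11.4 FPKM (2.06, SE 0.15, limma adjusted p = 0.000201), and Bhlhe41 rose by 0.70, while the PAR factor Tef (-0.44) and Clock (-0.48, not past the threshold with the length trend removed) fell. Arntl, the REV-ERB target, was at 8.13 ± 1.02 FPKM in the PBS group and 8.37 ± 1.18 FPKM with IL-33 and did not pass. The rising count was 2 with equal totals or quantile normalization and without IL-33 replicate 2 or 3 or PBS replicate 1 or 3.

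For vitamin D and thyroid hormone few related genes were expressed. The vitamin D target Cyp24a1 was listed at 0 in all libraries, and the activating enzyme gene Cyp27b1 reached 0.154 FPKM at most. Camp, counted in the vitamin D list, rose from 7.17 ± 2.71 to 35.5 ± 16.9 FPKM (2.09, SE 0.37). It is also on the neutrophil list, of which 8 of 10 fitted genes rose, 1 of the 10 having passed the filter only through its IL-33 libraries. Whether Camp answers to vitamin D in these mouse cells was not tested. Cyp2r1, with means of 2.2 ± 0.538 (PBS) and 1.99 ± 0.455 FPKM (IL-33), did not pass. Of 4 fitted thyroid hormone genes Klf9 rose, Ncoa1 and Thrap3 fell (Thrap3 was not past the threshold with the length trend removed), and the transporter Slc16a10 did not pass, while the deiodinase genes Dio1, Dio2 and Dio3 were at or below 0.0495 FPKM.

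**Figure D4:**
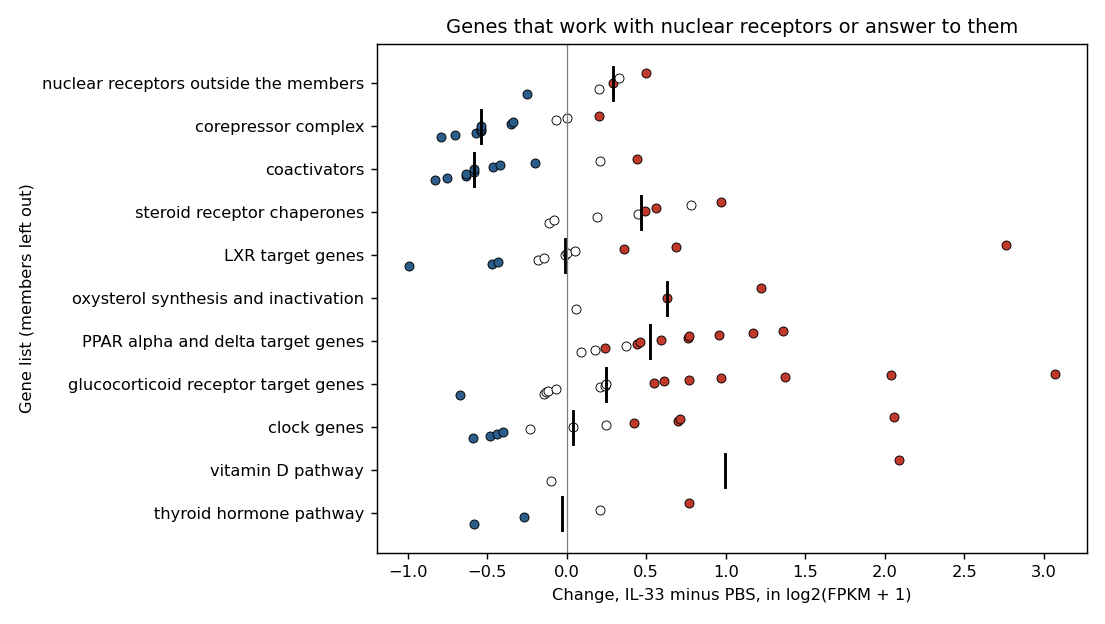
Change of each fitted gene in 11 lists of receptor partners, coregulators, chaperones and targets, IL-33 minus PBS in log2(FPKM + 1); red rose, blue fell, white did not pass, black bars are list medians and the 32 members are left out. Both coregulator lists lie mostly below 0 (medians -0.54 and -0.58) and the PPAR targets above it (0.53).

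Length moved with the change over all genes. The longest of the 3 classes by exonic length had a median change of -0.21 and the shortest of 0.24, with 44.6% of the shortest higher and 10.1% lower. Of the members that fell, Nr3c1 (7684 bases), Ppard (7514) and Nr2c2 (14935) are in the longest class and Nr1d2 (5409) in the middle one. Of those that rose, Nr1h3 (2515), Nr1d1 (3077) and Nr2f6 (2983) are in the shortest class, Vdr (5650) in the middle one, and Hr (6919) and Nr4a3 (5987) in the longest. With the trend removed, Hr (4.10), Nr4a3 (1.25), Nr1h3 (0.77), Nr3c1 (-0.39) and Nr1d2 (-0.45) kept their calls, as did Vdr.

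**Figure D5:**
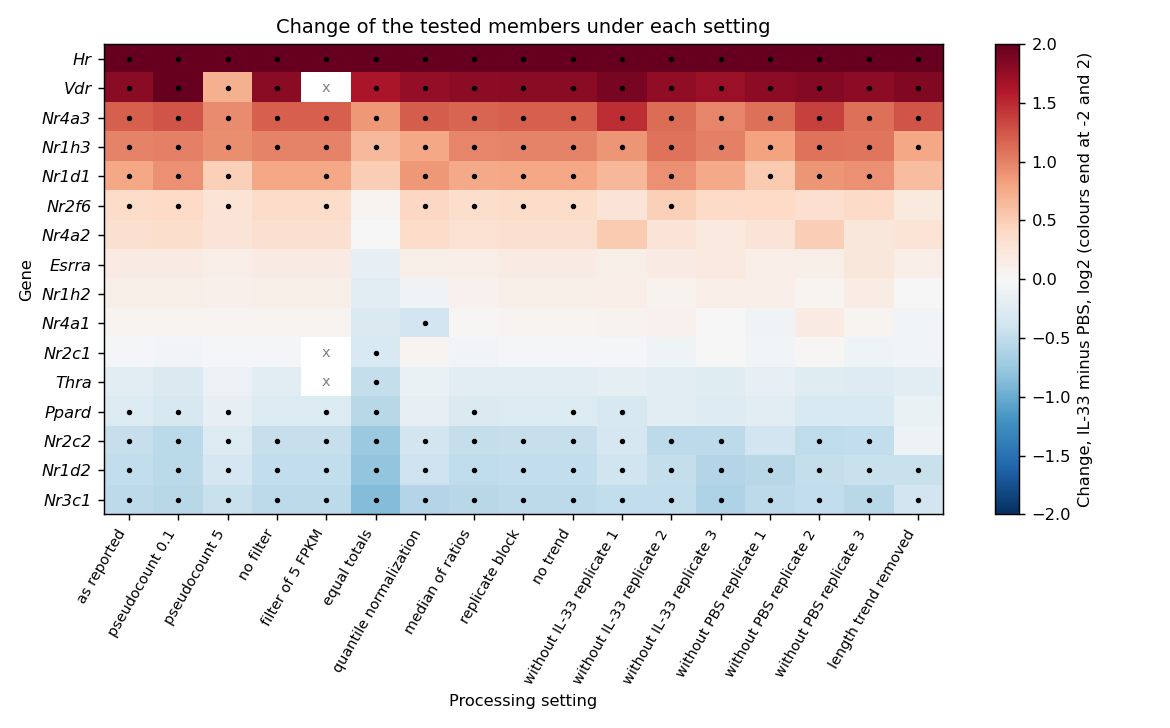
Change of the 16 fitted members (rows) under each processing setting (columns), as colour on the log2 scale; a dot marks an adjusted p under 0.05 and a cross a member that was not fitted. Hr, Vdr, Nr4a3, Nr1h3, Nr1d2 and Nr3c1 have a dot in every column in which they were fitted.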

How the data were processed

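The authors deposited 1 table per library with an FPKM value for each of 24346 gene symbols. Per the submitters' processing notes the tools were TopHat2 2.0.13, Bowtie2 2.2.3, SAMtools 0.1.19 and Cuffnorm 2.2.1 on mm10. The sources used here do not give the annotation, scaling method or strand use, and absolute depth is unknown. Per the labels' protocols libraries were made with a stranded mRNA kit. Reads shared by overlapping genes may have been divided between them.

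Members, lists and marker genes were chosen with earlier results of these data known. Every gene reaching 1 FPKM in 3 or more libraries was fitted with limma 3.58.1 (R 4.3.3) on log2(FPKM + 1), with a mean-dependent variance and 1 treatment coefficient. The fit was tested on simulated data with independent noise and 200 changed genes. Those data lacked the wide change, the differing totals and the length trend of the real libraries, so the test does not cover these. Every member is named, with up to 4 called genes of smallest adjusted p per list and every fitted receptor outside the members. Other genes (Hdac3, Ppargc1b, Zbtb16, Slc16a10, Cyp2r1, Tsc22d3, Abca1, Abcg1, Zbtb46, Flt3, Cyp27a1, Ch25h, Arntl and genes below the filter) were named after their values were seen. Exons came from GENCODE M21. Motifs searched on both strands were the cAMP response element TGACGTCA and its core TGACG, the AP-1 site TGANTCA, the receptor hexamer AGGTCA, the NR4A site AAAGGTCA, the E-box CACGTG, the D-box TTATGNAA, the STAT6 spacing TTCNNNNGAA, the STAT5 spacing TTCNNNGAA, the NF-κB consensus, the CArG box and the ROR response element. TGACG is part of TGACGTCA, and AGGTCA is part of AAAGGTCA and can be part of the ROR element. A match is a description of letters. Alternatives were other pseudocounts, filters, scalings and variance settings, a replicate block, each library left out, and removal of the trend with exonic length, which was added after seeing the data.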

Additional observations from a re-analysis of the deposited data

How the results depend on the processing

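Hr, Vdr, Nr4a3 and Nr1h3 stayed higher and Nr3c1 and Nr1d2 lower under each alternative in which they were fitted (Vdr was not, with a filter of 5 FPKM). With 1 library left out, 4 to 6 members were higher and 2 to 4 lower, the fewest lower being without PBS replicate 1, and over all genes 2622 to 3108 were higher and 2214 to 2768 lower. With the length trend removed 2 members were lower. Equal totals gave 1280 higher and 5840 lower genes in all, against 3230 and 2939. Among changes past the threshold as reported or under the alternative, signs turned for Nr4a1 with quantile normalization (-0.38) and with equal totals for Rxrb (-0.05), Hdac3 (-0.13), Gps2 (-0.33), Cyp27a1 (-0.27) and Acadvl (-0.09). Changes past it under neither turned sign as well, among them Esrra, Nr1h2, Nr4a1 and Pparg with equal totals. Equal totals lowers every IL-33 library relative to every PBS library by construction. For the other changes the cause was not tested.

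List counts that moved by more than 1.5 times were mostly small. Higher chaperones were 3, but 1 with quantile normalization and 5 with the replicate block. Lower glucocorticoid receptor targets were 1, but 3 with the length trend removed. Higher clock genes were 4, but 2 without a filter or with the length trend removed, and lower clock genes were 4, but 2 with a filter of 5 FPKM. Lower LXR targets were 3, and 6 with equal totals. The other such moves were in counts of 0 to 2, and in lower corepressor genes (8, and 5 with the length trend removed). The replicate numbers were not treated as pairs: deviations of libraries with the same number correlated at 0.07, -0.05 and 0.09. With the replicate block 6 members were higher and 3 lower, the call of Ppard being lost. Depth limits the genes near 1 FPKM most, and FPKM values give no interval for them.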
